A study of Caenorhabditis elegans with 2 samples.

Results

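The regions described here are the 500 strongest regions on chromosome X in a chromatin immunoprecipitation sequencing (ChIP-seq) experiment on ZK546.5 in Caenorhabditis elegans. They were chosen by the authors' signal value in the list made from both replicates pooled, out of 5179 regions on X and 30000 in all. The worms were whole L4 larvae of both sexes, pooled, of strain OP231, which carries the unc-119(ed3) allele on chromosome III and the transgene wgIs231, expressing ZK546.5 with a GFP-FLAG tag at its C terminus. There was 1 group of 2 biological replicates and no comparison of conditions; the control libraries were not analysed here. The labels used here do not name the promoter that drives the transgene or the tissues that express it, and whole animals mix all tissues. Read depth is unknown for both replicates. Coordinates are on ce11, counted from 1.

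In C. elegans, the dosage compensation complex binds both X chromosomes of hermaphrodites and lowers their transcription, so that expression from X matches that of males with a single X. A condensin-like assembly is brought to X by SDC-2 and partner proteins at recruitment elements, known as rex sites, from which it spreads. Recruitment elements carry several copies of a GC-rich motif, known as MEX, and many lie away from promoters. The regions had been labelled as possible dosage compensation sites, and that label was checked against their sequence and position. No data on the complex itself were analysed here.

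The sequence shared by the strongest X regions was the word GCGCAGGG. It was not searched for from a published motif: every run of 6 bases that began and ended within 50 bp of a summit was counted on both strands in the 25 strongest regions, and the 3 words at the most regions were taken, with ties going to the word rarer in the other X regions. CCCTGC was at 12 of the 25, CCTGCG at 11 and CTGCGC at 10. The choice rests on the head of the list: picked in the 50 strongest regions, or with the authors' IDR set (irreproducible discovery rate, a measure of how well ranks agree between replicates) left out, the top words held A and T alone. They overlap and merge into CCCTGCGC, which read on the other strand is GCGCAGGG and is part of the motif known as MEX. The whole regions of 12 of the 25 held 16 copies of the merged word, and 4 regions held a pair of copies. The 8 copies below show the word in capitals with 22 bases on each side, read on the strand that holds it, each named by the nearest protein-coding gene start. They were chosen as the copy nearest to the consensus in each of the 8 strongest regions with the word.

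W02H3.3, chrX:11094103-11094154, minus strand: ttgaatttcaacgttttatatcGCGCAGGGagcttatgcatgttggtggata
Y41G9A.17, chrX:2997101-2997152, minus strand: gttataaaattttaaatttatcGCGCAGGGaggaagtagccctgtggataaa
cest-16, chrX:6296554-6296605, plus strand: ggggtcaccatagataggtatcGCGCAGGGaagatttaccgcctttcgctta
xol-1, chrX:8036379-8036430, minus strand: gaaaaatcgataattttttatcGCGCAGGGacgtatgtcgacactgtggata
F20B6.9, chrX:4209244-4209295, minus strand: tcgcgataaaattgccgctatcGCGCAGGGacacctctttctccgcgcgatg
nspc-17, chrX:14525878-14525929, minus strand: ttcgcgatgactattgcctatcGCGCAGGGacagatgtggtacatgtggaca
F22H10.2, chrX:16682150-16682201, minus strand: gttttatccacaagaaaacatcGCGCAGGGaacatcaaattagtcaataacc
gtr-1, chrX:806652-806703, plus strand: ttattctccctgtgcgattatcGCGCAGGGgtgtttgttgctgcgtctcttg

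The bases around the word were alike too. Over the 16 copies, the flanking bases that were the same in at least 60% extended the word to TATCGCGCAGGGA, of 13 bases. The T before the C was present in 14 copies and the final A in 13. The distance from the centre of the word to the summit had a median of 35 bp, from 0.5 to 92.5 bp. The strongest region with the word, at W02H3.3, is shown whole because it holds 2 copies, 1 on the flank and 1 beside the summit. It is printed on the plus strand, so the word reads as its reverse complement, in capitals.

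W02H3.3, chrX:11094069-11094368, plus strand: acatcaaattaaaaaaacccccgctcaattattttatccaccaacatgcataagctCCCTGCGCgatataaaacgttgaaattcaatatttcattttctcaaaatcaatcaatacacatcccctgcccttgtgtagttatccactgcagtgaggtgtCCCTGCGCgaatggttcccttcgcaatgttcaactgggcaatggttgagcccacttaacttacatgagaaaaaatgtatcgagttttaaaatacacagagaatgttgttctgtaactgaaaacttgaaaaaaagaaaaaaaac

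Close relatives of the consensus stood beside it in some of the same regions. Sites with at most 2 mismatches numbered 19, in 12 of the 25 regions, and 7 regions held more than 1. These 19 include the 6 exact copies and other copies of the word from which the consensus was built. Their number is therefore partly set in advance and is a description only. With positions counted from 1 at the 5′ end of the consensus, the most frequent changes were T1C, at 6 sites, and C8A, at 4 sites in 4 regions. At F20B6.9 the C8A site lay on the plus strand, on X from 4209288 to 4209300, with the exact copy from 4209265 to 4209277 on the minus strand. At fbxb-58 a site with T1C and C8A was present although the word itself was not, and at F55G7.5 a site with T1A and C8G. Together 14 of the 25 regions held the word or such a site, among them 11 of the 19 that belong to the authors' IDR set. Sites with at most 2 mismatches were in 1 of the 475 regions ranked 26 to 500. They were in 5 of the 4679 other X regions and in 0 of the 500 strongest autosomal regions. Another word, TTATCCA, was within 50 bp of 7 of the 25 summits, against 1.26% of the regions ranked 26 to 500 and 1.43% of the other X regions. It was singled out after its counts were seen.

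Outside the 25 regions that picked it, the word was rare. These 25 regions picked the words, so their counts are a description only, and the regions ranked 26 to 500 did not pick them. Among those 475 regions, 11 had any of the 3 words within 50 bp of the summit (2.32%, 95% exact interval 1.16% to 4.11%), against 92 of the 4679 other X regions (1.97%, 1.59% to 2.41%). These intervals overlap, and all intervals given here cover the counting of regions only. Among the 500 strongest autosomal regions the share was 4.60% (2.94% to 6.82%), which overlaps the interval of ranks 26 to 500 but not that of the other X regions. The merged word was anywhere in the region for 2 of the 475, at col-185 and F54G2.1, against 4 of the 4679 other X regions. For the regions ranked 26 to 500 the shared words thus stood near their share in the other X regions. Lack of the words cannot decide the label of dosage compensation sites for them. The motif marks recruitment elements, the complex spreads from these, and the words were picked in these same data. For the first 25 the match of the word to the MEX motif is a description: 12 of them held the word, the last at rank 23, and 4 held more than 1 copy.

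The rule for naming regions outside the first 25 took those with CCCTGC within 50 bp of the summit, of which there were 5. The col-185 region held the exact consensus, with a pooled signal of 24.5 and X ranks of 109 in replicate 1 and 3584 in replicate 2. The regions at tmem-218, ser-1, F14H12.3 and nhr-255 lacked the merged word, with pooled signals from 19.2 to 22.2. At ser-1, which encodes a serotonin receptor, the region lay 128 bp upstream of the start and was listed in replicate 1 alone, at rank 527. At nhr-255, a nuclear hormone receptor gene, it lay 497 bp upstream and was listed in replicate 2 alone, at rank 99.

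**Figure D1:**
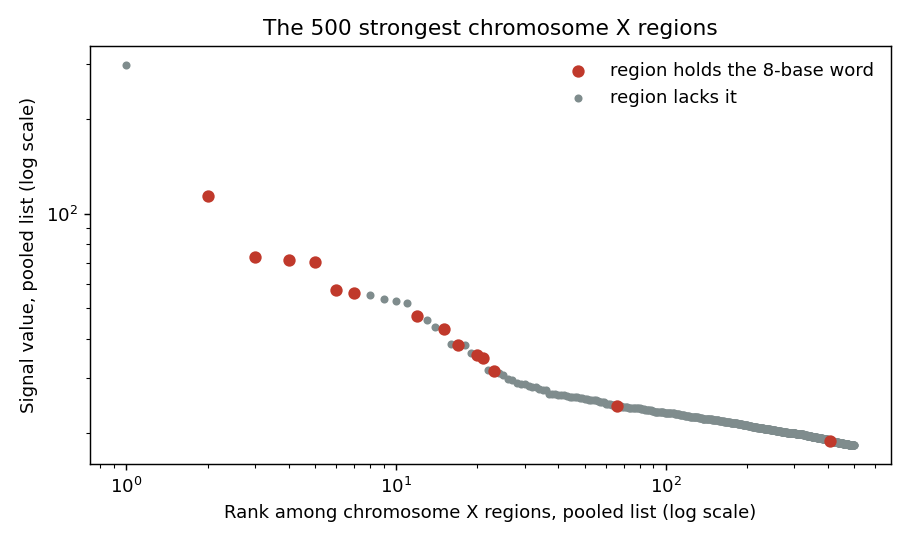
Signal value in the pooled list (log scale) against rank among X regions (log scale) for the 500 regions, with red points for regions that hold the word GCGCAGGG. Of the 14 red points, 12 lie within rank 23 and the others at ranks 66 and 407.

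Most copies of the word lay under no strong region. Chromosome X has 81 copies, or 4.57 per Mb, and the autosomes have 233, or 2.82 per Mb. On X, 18 copies lay inside one of the 500 regions, but 16 of these were under the 25 regions that picked the word, and the other 2 were those at col-185 and F54G2.1. Of the autosomal copies, 4 lay inside a region at or above the signal of the weakest of the 500. The exact consensus of 13 bases occurs 8 times on X and 0 times on the autosomes. Of the 8, 6 lay under the regions from which the consensus was built, 1 under the col-185 region at rank 66, and 1 in no listed region, on X from 2997297 to 2997309, 85 bp from region 3, at Y41G9A.17. The word and the consensus were drawn from X regions, so these counts on X and on the autosomes are a description and not a comparison.

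The pooled signal chose the 500 regions, so its values describe the list only. The signal values are the authors', and no source used here gives their scale. The replicate lists differ in level, with medians over all rows of 8.98 in replicate 1 and 6.39 in replicate 2, so replicates are compared by rank on X. Pooled values ranged from 18.3 to 298 over the 500, with a median of 20.5, against 9.83 to 18.3 and a median of 12.4 over the other X regions. The limit of 500 fell on a smooth slope. Just inside it were regions at F49E2.5, with 18.3400, and F11D5.1, with 18.3399, and just outside it those at cytb-5.1, with 18.3316, and C43H6.4, with 18.3285.

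The first region was unlike those that followed. It lay 391 bp upstream of rpl-11.2, which encodes a protein of the large ribosomal subunit, on X from 2242901 to 2243088. Its signal was 298 in the pooled list, 176 in replicate 1 and 124 in replicate 2, the first X rank in both. It lacked the word. The only other promoter region among the 25 was that of vha-15, which encodes a subunit of the V-ATPase proton pump, at rank 19 with a signal of 36.2, and it lacked the word as well.

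Next came the regions with the word. The W02H3.3 region had a signal of 114 in the pooled list, 64.5 in replicate 1 and 50.5 in replicate 2, the second X rank in both. It was intergenic, 3967 bp from the nearest protein-coding start. Region 3 lay in an intron of Y41G9A.17, on X from 2996913 to 2997212. Its pooled signal was 72.8, and it ranked 11 in replicate 1 with 29.1 and 3 in replicate 2 with 44.5. The fourth lay within an intron of mom-1, which acts in Wnt secretion, with cest-16 as the nearest start, on X from 6296450 to 6296749. It had a pooled signal of 71.6 and ranked 3 in replicate 1 with 45.04 and 9 in replicate 2 with 23.5. All 3 were among the 11 highest X rows of each replicate.

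The fifth region lay 4874 bp upstream of xol-1, the switch gene whose activity sets male fate and keeps dosage compensation off, on X from 8036289 to 8036588. Its signal was 70.5 in the pooled list, 44.8 in replicate 1 and 29.7 in replicate 2, X ranks 4 and 5. It held 2 copies of the word, 1 of them 0.5 bp from the summit, and lay beside the tRNA gene WBGene00022939. Regions 6 and 7, at F20B6.9 and at the peptide gene nspc-17, had pooled signals of 57.4 and 56.1. Region 6 had a neighbour, region 23, whose start lies 599 bp away, on X from 4208557 to 4208856, with its own copy of the word and a pooled signal of 31.6. Region 6 ranked 6 and 12 in the replicates, and region 23 ranked 29 and 414.

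Some strong regions lacked the word. Regions 8, 9 and 11, at ZK899.6, K02D3.1 and F19H6.5, had pooled signals of 55.1, 53.8 and 51.9 with 4 or 5 mismatches as their nearest match to the consensus within 100 bp of the summit. All 3 were intergenic, and each was among the first 34 X rows of both replicates. Over the 25, the 12 regions with the word had signals from 31.6 to 114 with a median of 51.7, and the 13 without it from 30.6 to 298 with a median of 43.8. The ranges overlapped. Among the weaker of the 25 were the region in an exon of pks-1, a polyketide synthase gene, at rank 17 with 38.3 and a copy of the word, and the region 2743 bp from adm-2, a metalloprotease gene, at rank 22 with 31.8 and no copy. The adm-2 region ranked higher in replicate 2, at 15, than in replicate 1, at 333. Of the 12 with the word, 9 were among the 100 strongest X rows of both replicates, against 8 of the 13 without it.

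A few strong regions ranked far higher in replicate 1 than in replicate 2. The region at the microRNA cluster that starts with cel-mir-54 had a pooled signal of 38.5 and ranked 16 in replicate 1 with 25.95 but 1995 in replicate 2 with 7.11. A separate region at the same cluster, rank 397 of the 500, ranked 47 in replicate 2 with 14.6 and was not listed in replicate 1. The cluster as a whole was therefore not high in replicate 1 alone. The region 812 bp upstream of ftt-2, which encodes a 14-3-3 protein, had a pooled signal of 38.1 and ranked 8 in replicate 1 with 33.2 and 1187 in replicate 2 with 8.27. The cel-mir-54 and ftt-2 regions lacked the word, and both belonged to the authors' IDR set despite these ranks. The ins-39 region, near a gene of an insulin-like peptide, held the word and was outside the IDR set. It ranked 12 in replicate 1 with 28.9 and 645 in replicate 2 with 9.44.

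Ranked within each replicate alone, the head of X held the word as well. Of the 25 strongest X rows, 9 held it in replicate 1 and 9 in replicate 2. Of the rows ranked 26 to 500 it was in 4 in replicate 1 and in 3 in replicate 2, and of the later rows in 4 of 4718 and in 6 of 4808. Of the 25 strongest rows, 18 in replicate 1 and 16 in replicate 2 overlapped the 25 strongest of the pooled list. The pooled list was made from both libraries, so this is not an independent repeat. The word was also picked in the pooled list. Picked in replicate 1 alone, the top words were AAATTA, at 12 of the 25 regions, CCCTGC, at 11, and ATAAAA. Picked in replicate 2 alone, they were ATAAAA, at 12, CCCTGC, at 10, and ATTTTA. Neither set merges into GCGCAGGG.

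**Figure D2:**
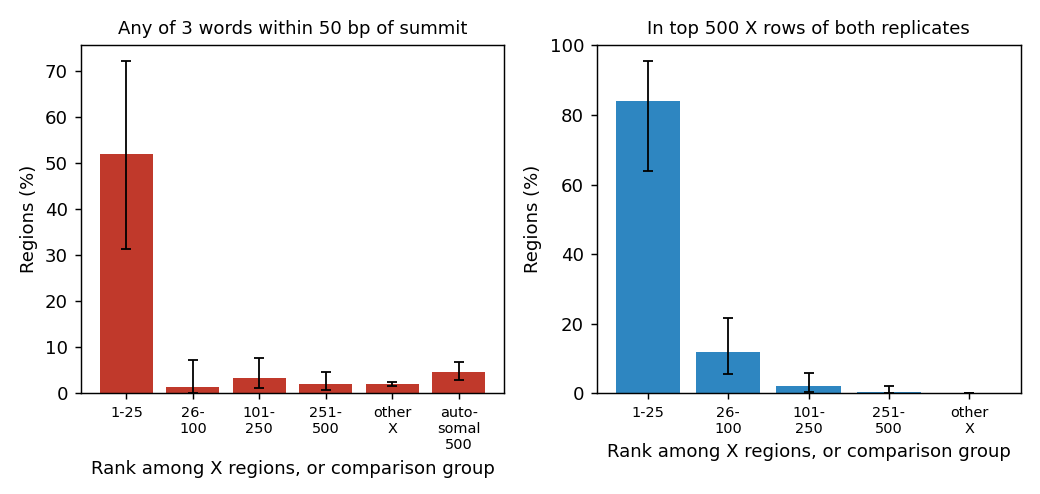
Left, share of regions (%) with any of the 3 words within 50 bp of the summit, by rank among X regions and in the comparison groups; right, share (%) among the 500 strongest X rows of both replicates, with 95% exact intervals as lines. The words stand at 52.0% in the first 25, which picked them, and at 1.33% to 3.33% in the later rank groups, and the right panel stands at 84% in the first 25 and 12% in ranks 26 to 100.

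Each of the 500 regions was looked up in the replicate lists, where a region counted as listed when it overlapped a row by at least 1 bp. In replicate 1, 463 were listed (92.6%), and in replicate 2, 364 (72.8%). Both replicates listed 329 (65.8%, 61.5% to 69.95%), against 874 of the other X regions (18.7%, 17.6% to 19.8%) and 83.4% of the 500 strongest autosomal regions. Over all X regions the share was 23.2%. The autosomal regions had higher signals, with a median of 25.6 against 20.5 for the 500 on X, so these groups differ in strength too. The pooled signal that chose the 500 rests on both libraries, so these shares are a description. The authors' IDR set held 19 of the 500, all within the first 19 ranks, against 0.367% of all X regions. Only 2 regions were in neither replicate, at rgl-1 and ddr-2 with pooled signals of 20.3 and 18.6. Of the other X regions, 652 were in neither (13.9%). Replicate 1 alone listed 134 of the 500 (26.8%), against 1868 of the other X regions (39.9%), and replicate 2 alone listed 35 (7%), against 1285 (27.5%).

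High rank in both replicates is a stricter condition than being listed in both, so fewer regions can meet it. Of the 500, 34 were among the 500 strongest X rows of both replicates (6.80%, 4.75% to 9.37%), against 4 of the 4679 other X regions (0.0855%). The pooled signal that split these groups rests on both libraries, so these shares are a description as well. Of the 34, 21 were of the first 25. The other 13 ran from rank 27 to rank 435. They included the region 4073 bp from F43E12.1 at rank 27, which ranked 18 and 218 in the replicates, and the region at ergi-3 at rank 28, which ranked 103 and 19. Another lay in an exon of his-24, which encodes a linker histone, with a pooled signal of 28.1 and ranks of 189 and 267. A region 221 bp upstream of zfp-3, a zinc finger gene, ranked 123 and 288. A region in an exon of sto-2, a stomatin gene, at rank 435, ranked 403 and 85. None of these 5 held the word. The 13 include a pair of overlapping regions at C30E1.4, ranks 41 and 132, which matched the same rows, at ranks 86 and 138, so they are 1 place on X.

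The strongest regions absent from replicate 2 were high in replicate 1. The pooled signal that ranks them rests on both libraries. Their high replicate 1 ranks are therefore partly set by the selection and are a description only. The 10 strongest that were not in both lists were all listed in replicate 1 alone. They had pooled signals from 24.4 to 29.8 and replicate 1 ranks from 13 to 194. Among them were a region in an intron of the nuclear hormone receptor gene nhr-1, at replicate 1 rank 20, and one 1144 bp from the start of col-176, a collagen gene, at rank 19. The region with the highest such rank, 13, lay 1057 bp from the start of lec-9, a galectin gene, and had 27.2 in replicate 1 and 25.6 in the pooled list. None of the 10 held the word.

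Among the 329 regions in both lists the replicate signals had a Spearman rho of -0.14. It was 0.41 over the first 25 and -0.37 over the 304 others. Ranking by pooled signal bounds the total of both replicates, and the regions share libraries, so these values describe the list only.

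**Figure D3:**
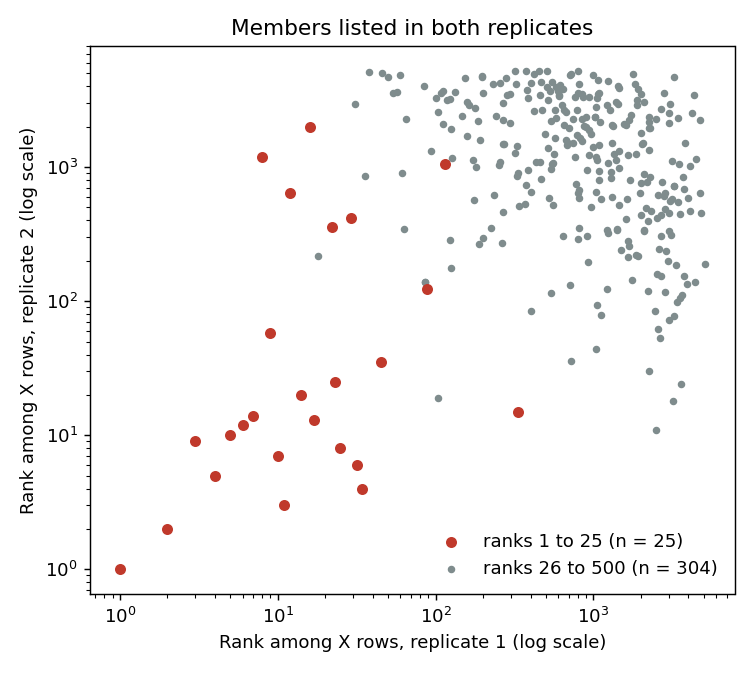
Rank among X rows in replicate 2 against that in replicate 1 (both log scales) for the 329 regions listed in both, with red points for the first 25. The red points lie toward the lower left, with ranks from 1 to 333 in replicate 1 and from 1 to 1995 in replicate 2.

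The first 25 regions were more often intergenic than the later ranks. A summit was placed at a promoter when it lay from 500 bp upstream to 100 bp downstream of a protein-coding start. Of the first 25, 18 were intergenic (72.0%, 50.6% to 87.9%), 4 lay in introns, 1 in an exon and 2 at promoters. In ranks 26 to 500 the intergenic share was 42.7% (38.2% to 47.3%), against 41.1% (39.7% to 42.5%) of the other X regions, and neither interval overlaps that of the first 25. The promoter share of the first 25 was 8% (0.984% to 26.03%), an interval that overlaps those of ranks 26 to 500 (13.1%, 10.2% to 16.4%) and of the other X regions. The promoter share of all 500 was 12.8% (9.999% to 16.05%), against 11.1% (10.2% to 12.03%) of the other X regions and 32.4% (28.3% to 36.7%) of the 500 strongest autosomal regions. The intervals of the 500 and the other X regions overlapped each other, and neither overlapped that of the autosomal regions. The autosomal regions were not matched in strength. Their signals ran from 23.2 to 1072 with a median of 25.6, against 18.3 to 298 and 20.5 for the 500 on X. The part of strength in these shares was not tested. The median distance to the nearest protein-coding start was 1821 bp for the first 25, 1534 bp for ranks 26 to 500, 1491 bp for the other X regions and 855 bp for the autosomal regions.

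**Figure D4:**
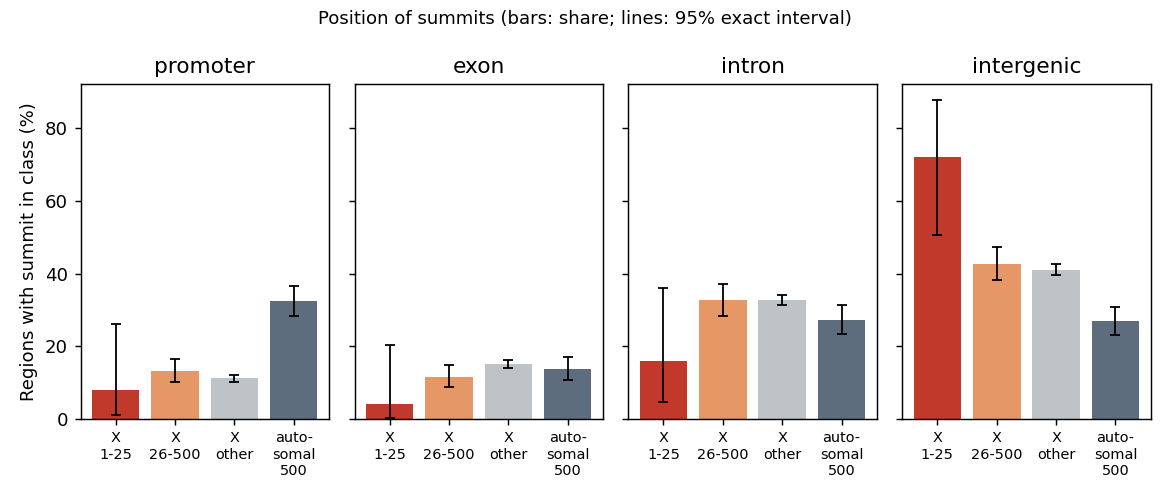
Share of regions (%) whose summit lay at a promoter, in an exon, in an intron or between genes, for X ranks 1 to 25, X ranks 26 to 500, the other X regions and the 500 strongest autosomal regions, with 95% exact intervals as lines. Ranks 26 to 500 stand beside the other X regions in each panel, and the autosomal bar is the highest at promoters with 32.4%.

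The first 25 regions were richer in GC, and the later ranks lay close to the other X regions. Within 50 bp of the summit the median GC content was 41.6% in the first 25, 29.7% in ranks 26 to 500 (29.7% to 30.7% in their 3 rank groups), 30.7% in the other X regions and 32.7% in the autosomal regions. The GC-rich words are part of that value in the first 25. The part of GC content in the word counts was not tested. Soft-masked bases, which the RefSeq sequence marks as repeats, made up a median of 27% of each of the first 25 regions, 40% in ranks 26 to 500 and 36.7% in the other X regions.

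The regions were spread along the whole of X. The 17 full stretches of 1 Mb held from 15 to 38 each, with a median of 28. The middle one of 3 equal parts of the chromosome held 31.4% of the 500 (27.4% to 35.7%), against 30.5% of the other X regions. The gaps between neighbouring summits had a median of 22.9 kb, 28 regions had another of the 500 within 1000 bp, and 4 overlapped another. The gaps between the 19 regions of the IDR set ran from 5.38 to 1740 kb.

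Of the listed genes of the complex, 2 lie on X, and sdc-1, which encodes a zinc finger protein of the complex, had one of the 500 regions 93 bp upstream of its start. That region was rank 379, with 19.3 in the pooled list and 15.0 in replicate 1, rank 229, and it was not listed in replicate 2. Of the listed X signal elements and their target, 4 genes were annotated by symbol on X, and 0 had one of the 500 within 1000 bp of the start. Of the other X regions, 0 were that near a gene of the complex and 3 were near signal element genes. The xol-1 region described above was the only one within 5 kb.

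Other gene lists had few members near the regions. Starts of tRNA genes lay within 1000 bp of 17 of the 500 (3.40%), against 2.80% of the other X regions, and X holds 276 of the 634 annotated tRNA genes. Starts of microRNA genes lay near 6 regions (1.20%, other X regions 0.812%) and those of snoRNA genes near 4 (0.800%, other X regions 0.299%). A second region at the cel-mir-55 cluster, at rank 397 with a signal of 19.1, was in replicate 2 alone, at rank 47. Nuclear hormone receptor genes were near 2 regions, at nhr-255 and nhr-281 (0.400%, other X regions 0.363%). Ribosomal protein, neuropeptide and V-ATPase genes were each near 1 region (0.200%), at rpl-11.2, ins-39 and vha-15. Of the other X regions, 0.0427% were near ribosomal protein genes, 0.449% near neuropeptide genes and 0.0214% near V-ATPase genes. Genes of the collagen list, vitellogenin genes and snRNA genes were near 0 of the 500, against 18, 3 and 1 of the other X regions. The collagen list took every gene named col-, dpy-, rol- or sqt-, so it also held dpy genes of the complex that are not collagens.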

How the data were processed

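ZK546.5 ChIP-seq was analysed in 1 group of 2 biological replicates. The authors deposited narrowPeak lists with a signal value per region on ce11; per the deposited README text these were made from ChIP alignments with a control alignment, and the IDR set was derived from the replicate and pooled lists. No source used here names the aligner, the peak caller or the IDR threshold. The lists hold no read counts, so depth is unknown and no error from it was computed. The ce10 lists were not used. Genes came from Ensembl release 115 and sequence from RefSeq, both on WBcel235, the assembly of ce11.

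Members are the first 500 chromosome X rows by signal value. Words of 6 bases were counted within 50 bp of each of the first 25 summits, those in at least 5 regions kept and the top 3 taken. Named regions are the first 25, those at the limit of 500, regions 26 to 500 with the first word, the 10 strongest not listed in both replicates and those within 5 kb of dosage compensation genes. Others were named after their values were seen. Members and lists were chosen with earlier results of these data known. The consensus, its mismatches, the words of 7 bases and the masked bases were added after the words were seen. Shares carry 95% exact (Clopper-Pearson) intervals. No test was run, since the values chose the members and regions are not replicates of animals. The steps were tested on simulated data. Python 3.11.15, NumPy 2.4.6 and SciPy 1.17.1 were used.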

Additional observations from a re-analysis of the deposited data

How the results depend on the processing

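Each share was recomputed with 1 choice changed at a time. The share listed in both replicates was 70.4% for the 250 strongest regions and 53.5% for the 1000 strongest, 58.0% with the summit inside a replicate row, 57.6% with a reciprocal overlap of 50%, and 26% when only the 10000 strongest rows of each replicate counted. The share in the top 500 of both was 13.2% for 250 regions, 3.70% for 1000 and 3.53% without the IDR peaks. Promoters held 24.0% when they reached 1000 bp upstream and 200 bp downstream, and 4.80% at 250 and 50 bp. The middle 50% of X's length held 48.8%.

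The shared words depended on the choices most. Among regions that did not pick them, 0.632% held words of 7 bases, which were still the GC-rich ones, against 0.620% of the other X regions. A word was anywhere in the region for 5.47%. The merged word was within 50 bp of the summit for 0.211%, against 0.0214% of the other X regions. Picked in the 50 strongest, with a window of 100 bp or without the IDR peaks, the top words were made of A and T alone and were held by 78.7%, 94.3% and 78.7%, against 77.5%, 93.8% and 77.5% of the other X regions. Picked without replicate 2 and without replicate 1, CCCTGC was joined by words of A and T, at 51.8% and 40.8%. The shares in the other X rows of the same lists were 51.8% and 42.3%. Intervals cover the counting of regions only, and depth is unknown. No paired analysis was possible because there was 1 group.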
